A study of Mus musculus with 51 samples.

Results

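Loss of maternal germline DNA methylation was compared with the wild type for the parental distribution of H3K27me3 in the mouse epiblast at embryonic day 6.5. The quantity examined was the log2 ratio of paternal to maternal reads, log2(pat/mat), at each autosomal H3K27me3 peak, and its difference between the matDKO/CAST and B6/CAST crosses. The deposited epiblast table held 13189 H3K27me3 peaks, of which 11810 were autosomal. Of these, 8924 were informative, meaning that at least 1 allele of a wild-type library had 20 or more reads. The peaks had been called in the wild-type crosses only, so a region marked solely in matDKO/CAST embryos could not enter.

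Crosses are written with the mother first. In B6/CAST embryos a wild-type C57BL6/Babr (B6) mother was mated to a CAST/Ei (CAST) father. In matDKO/CAST embryos the mother was of a mixed B6 and 129 background, carried floxed alleles of the de novo DNA methyltransferase genes Dnmt3a and Dnmt3b, and expressed cre from the oocyte-specific Zp3 promoter. Their embryos were thus labelled Dnmt3a -/+ and Dnmt3b -/+ by maternal inheritance, and the father was again CAST. The reciprocal CAST/B6 cross, which the comparison did not use, carried the strains on the opposite parents. Of the 51 samples of the series, 4 were compared, 2 libraries per cross, each from a pool of 4 dissected epiblasts. Bulk chromatin of a pool cannot separate a change in all cells from a change in some of them.

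At imprinted loci, a germline differentially methylated region (gDMR) carries DNA methylation inherited from 1 parent only. At most such loci in the mouse the methylated allele comes from the oocyte, and de novo methyltransferases place that methylation there. H3K27me3 is deposited by Polycomb repressive complex 2 and is associated with transcriptional repression. It is found at CpG-rich promoters of developmental genes on both alleles, and at some imprinted domains it covers only the allele that is silenced, in long stretches that spread from a noncoding RNA gene such as Kcnq1ot1 or Airn.

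The reads assigned to a parent within autosomal peaks numbered 1213931 in replicate 1 and 911972 in replicate 2 of B6/CAST. For matDKO/CAST they numbered 1120888 and 270678. The median informative peak had 69, 50, 64 and 16 allelic reads in the same order, so matDKO/CAST replicate 2 gave the least precise ratios. The paternal share of these reads was 47.4% and 49.3% in B6/CAST against 46.0% and 44.2% in matDKO/CAST. Each library's ratios were therefore centred on its own autosomal median. At the H3K4me3 level, 9 of 10 epiblast marker start sites exceeded 2 RPKM in every library of both crosses, Fgf4 being the exception. Of the 10 ExE markers 8 did so too, and their summed H3K4me3 was 112 to 162 RPKM per library against 141 to 198 RPKM for the epiblast markers. Elf5, a defining gene of the extra-embryonic ectoderm (ExE), lay between 0.109 and 0.200 RPKM.

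A B6/CAST library stood apart on chromosomes 3 and 11. In B6/CAST replicate 1 the median centred log2(pat/mat) was -0.48 on chromosome 3 and -0.53 on chromosome 11, whereas its other autosomes lay between -0.074 and 0.16. The remaining epiblast H3K27me3 libraries lay between -0.055 and 0.026 on these chromosomes. Chromosome 11 held 12.6% of the maternal reads of replicate 1 and 8.89% of its paternal reads, against 8.66% and 8.52% in replicate 2. The H3K4me3 library with the same cross and replicate number, which was made from the same pool of embryos, had medians of -0.45 and -0.44 on chromosomes 3 and 11. H3K36me3 replicate 1, which the study's sample list assigns to a different pool, had medians of 0.022 and 0.0072. The maternal excess was thus seen in both marks measured here in replicate 1's pool, and values without that library, or from the other libraries alone, are given for the called peaks on these chromosomes and for the first not called.

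**Figure D1:**
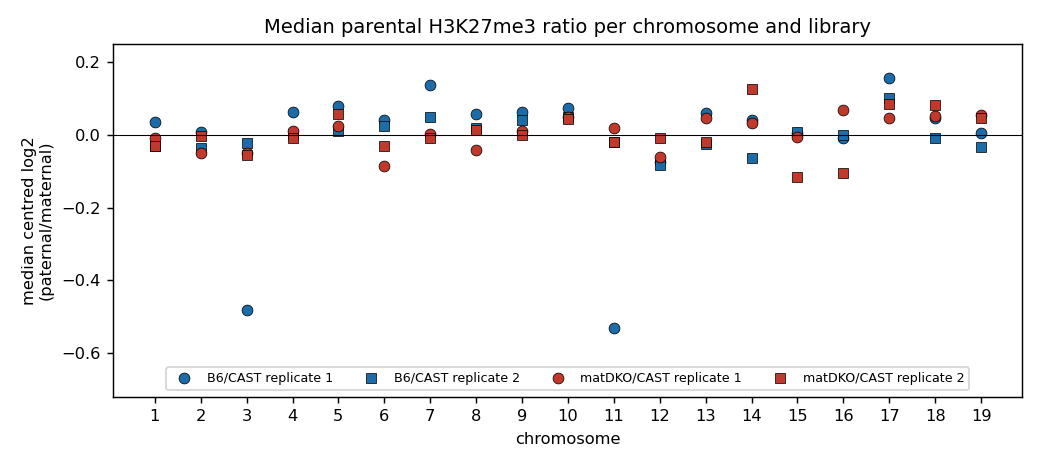
Median centred log2(pat/mat) of H3K27me3 over the informative peaks of each autosome (horizontal axis) in the 4 epiblast libraries compared (circles, replicate 1; squares, replicate 2). B6/CAST replicate 1 drops to -0.48 on chromosome 3 and -0.53 on chromosome 11, while every other point lies between -0.12 and 0.16.

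Parental H3K27me3 differed between the crosses at 16 of the 8924 informative peaks, or 0.179% (edgeR quasi-likelihood test of the cross by parent interaction, Benjamini-Hochberg adjusted p below 0.05). At 13 peaks (0.146%) the paternal share was lower in matDKO/CAST embryos and at 3 peaks (0.0336%) it was higher. At an unadjusted p below 0.05 there were 285 peaks. The 2 alleles of a library come from the same chromatin, and with library as a block the same test called 47 peaks (0.527%), 38 lower and 9 higher, the 16 among them. The median change over all informative peaks was 0.00 on the log2 scale. Leaving out matDKO/CAST replicate 1, the deeper library of its group, left 1 call, Grb10, and leaving out the shallow replicate 2 left 8, all among the 16 (Grb10, Trpm5/Kcnq1, Cdkn1c/Phlda2, Zp3, Plagl1, Zdbf2, Tmem267 and the Gnas peak within the gene). Leaving out B6/CAST replicate 1 gave 12 calls, 11 of them among the 16 (calls lost included Zp3, Slc22a3/Slc22a2, Ntsr2 and Igf2/Ins2), and leaving out B6/CAST replicate 2 gave 25, which held all 16. None of the 16 changes reversed its sign without a library. The last peak called was Igf2/Ins2, with an adjusted p of 0.0266, and the first not called was S100a11, with an adjusted p of 0.0555. S100a11 lies on chromosome 3 (chr3:93527000-93535500, intergenic), and its log2(pat/mat) was -0.54 and -0.69 in B6/CAST against 1.38 and 2.77 in matDKO/CAST (a change of 2.33). It was called without B6/CAST replicate 1 (2.36, adjusted p = 0.0299), and with library as a block (2.28, adjusted p = 0.000278).

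Of the 16 changed peaks, 11 were imprinted in the wild type, and with library as a block 20 of 47 were. In both wild-type crosses 29 informative peaks (0.325%) had the same parental bias, 25 with more paternal and 4 with more maternal H3K27me3, which include the 11. B6/CAST enters both the class and the change, so this overlap is a description. The block thus called 20 of the 29, a class that was itself set without the block. All 11 moved towards an equal ratio: 9 from a paternal bias and 2 from a maternal bias. Without matDKO/CAST replicate 1 the count of 11 was 1, and without replicate 2 it was 6. In matDKO/CAST embryos none of the 11 retained a parental bias past the threshold when that cross was tested on its own, where 168 of all informative peaks (1.88%) were biased. The lowest adjusted p of the 11 was 0.356. With library as a block 307 peaks were biased within matDKO/CAST, among them 3 of the 11. Cdkn1c/Phlda2 kept a small paternal excess (log2 0.26, adjusted p = 0.000515), as did Trpm5/Kcnq1 (0.20, adjusted p = 0.0497), against 2.19 and 2.24 in B6/CAST. Igf2/Ins2 had a small maternal excess (-0.31, adjusted p = 0.00538), against a paternal one of 0.94 in B6/CAST.

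**Figure D2:**
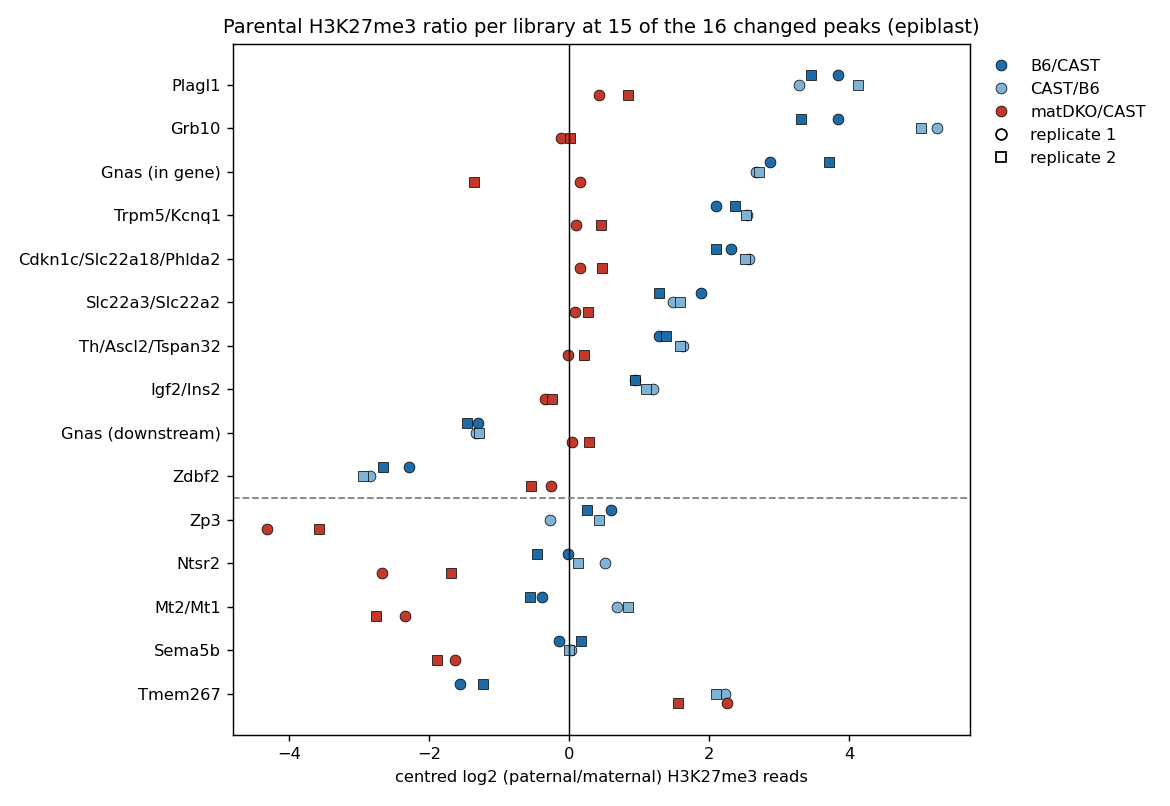
Centred log2(pat/mat) of H3K27me3 (horizontal axis) per library at 15 of the 16 changed peaks, with imprinted peaks above the dashed line. The 2 CAST/B6 libraries were not used in the test of the change, though they entered the imprinted class, and lie on the B6/CAST side of 0 at all 10 imprinted peaks shown, while the matDKO/CAST libraries lie near 0, between -1.36 and 0.83.

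The promoters below lie inside 5 of the changed imprinted regions and are shown for their CpG content. The cross is designed to remove maternal methylation of CpG sites. Whether the sites shown carry that methylation, or belong to the gDMR of their locus, was not tested. Each is the 250 bases before a RefSeq start site (build GRCm38.p6), written 5′ to 3′ on the gene's strand, with CG dinucleotides in capitals. The median over 32851 RefSeq promoters of this length was 6 CG.
Grb10 (chr11:12037421-12037670, minus strand): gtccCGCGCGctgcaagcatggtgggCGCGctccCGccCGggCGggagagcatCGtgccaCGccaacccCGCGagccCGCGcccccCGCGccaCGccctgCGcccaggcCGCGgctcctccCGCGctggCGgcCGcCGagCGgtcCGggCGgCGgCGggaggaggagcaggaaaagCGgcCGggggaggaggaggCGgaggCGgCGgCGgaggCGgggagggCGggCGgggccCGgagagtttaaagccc
Zdbf2 (chr1:63273019-63273268, plus strand): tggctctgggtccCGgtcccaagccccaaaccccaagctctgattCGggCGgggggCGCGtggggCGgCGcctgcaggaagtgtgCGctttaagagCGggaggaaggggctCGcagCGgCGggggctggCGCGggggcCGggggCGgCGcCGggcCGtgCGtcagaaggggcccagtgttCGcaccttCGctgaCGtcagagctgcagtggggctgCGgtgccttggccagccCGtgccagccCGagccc
Gnas (chr2:174327518-174327767, plus strand): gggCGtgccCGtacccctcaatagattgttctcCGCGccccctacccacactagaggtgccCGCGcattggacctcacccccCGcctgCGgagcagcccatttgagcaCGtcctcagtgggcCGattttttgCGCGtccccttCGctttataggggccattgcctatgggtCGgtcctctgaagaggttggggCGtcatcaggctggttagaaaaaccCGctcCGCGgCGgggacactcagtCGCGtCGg
Phlda2 (chr7:143502525-143502774, minus strand): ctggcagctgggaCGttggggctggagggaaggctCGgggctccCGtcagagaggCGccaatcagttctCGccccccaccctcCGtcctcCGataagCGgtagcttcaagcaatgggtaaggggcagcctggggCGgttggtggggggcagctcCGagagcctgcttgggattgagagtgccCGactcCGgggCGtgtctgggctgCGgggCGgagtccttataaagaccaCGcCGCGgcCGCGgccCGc
Plagl1 (chr10:13090582-13090831, plus strand): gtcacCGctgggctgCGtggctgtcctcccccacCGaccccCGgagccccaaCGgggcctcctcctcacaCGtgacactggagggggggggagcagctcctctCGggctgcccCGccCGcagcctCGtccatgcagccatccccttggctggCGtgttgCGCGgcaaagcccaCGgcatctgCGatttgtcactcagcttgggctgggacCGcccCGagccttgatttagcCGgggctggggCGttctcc

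The Grb10 promoter shown held 40 CG, a number reached by 1.31% of all promoters, while another Grb10 start in the same peak held 8, reached by 43.0%. The Zdbf2 promoter held 26 (9.59% of promoters), the Gnas promoter shown 22 (14.8%), the Phlda2 promoter 21 (16.3%) and the Plagl1 promoter 19 (19.7%). The letters TGCCGC, the core of the site that ZFP57 binds when methylated, were searched on both strands. They occurred at 1 place in the Plagl1 promoter, and 8.68% of all promoters held them.

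Grb10 encodes an adaptor protein that restrains growth factor signalling, and its peak gave the smallest p-value of all (chr11:12010500-12050500, GRCm38, spanning a start site). In B6/CAST embryos 358 paternal and 27 maternal reads were counted in replicate 1, and 300 and 31 in replicate 2. In matDKO/CAST embryos the counts were 274 paternal and 348 maternal in replicate 1, and 52 and 65 in replicate 2. Centred log2(pat/mat) was thus 3.84 and 3.30 in the wild type and -0.12 and 0.01 in matDKO/CAST, with no overlap. The change was -3.65 ± 0.34 (SE, adjusted p = 5.64e-08), and the 2 CAST/B6 libraries stood at 5.25 and 5.03. Grb10 lies on chromosome 11, and without B6/CAST replicate 1 the change was -3.39 (adjusted p = 2.15e-08). Without matDKO/CAST replicate 1 it was -3.57 (adjusted p = 5.77e-04).

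Plagl1, a zinc finger gene expressed from the paternal allele, changed in the same direction (chr10:13085000-13096000, exonic). The B6/CAST libraries had 71 and 68 paternal reads against 5 and 6 maternal reads. The matDKO/CAST libraries had 80 and 20 paternal reads against 70 and 14 maternal reads. Log2(pat/mat) fell from 3.84 and 3.45 to 0.42 and 0.83, a change of -3.19 ± 0.49 (SE, adjusted p = 5.04e-04).

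The Gnas locus held changes in opposite directions. Gnas encodes the stimulatory G protein alpha subunit and has several promoters with different parental expression. The peak within the gene (chr2:174319500-174330000, exonic) had a log2(pat/mat) of 2.87 and 3.72 in B6/CAST against 0.16 and -1.36 in matDKO/CAST. Its change was -3.46 ± 0.57 (SE, adjusted p = 0.00130). The intergenic peak downstream (chr2:174349000-174400000) had a maternal bias in B6/CAST, -1.30 and -1.46, and stood at 0.04 and 0.29 in matDKO/CAST. Its change was 1.51 ± 0.32 (SE, adjusted p = 0.0248), and without centring it was 1.34 with an adjusted p of 0.0841. The remaining Gnas peak (chr2:174296000-174302500) went from 1.44 and 2.32 to 0.42 and -0.22, with 156 allelic reads in all and an adjusted p of 0.925.

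Zdbf2, a gene expressed from the paternal allele, carried the other maternal bias that changed (chr1:63243000-63282500, spanning a start site of Zdbf2 and 1700039I01Rik). The B6/CAST libraries had 112 and 89 paternal reads against 606 and 584 maternal reads. In matDKO/CAST the paternal reads were 82 and 15 and the maternal reads 115 and 28. Log2(pat/mat) rose from -2.30 and -2.66 to -0.26 and -0.55, a change of 2.16 ± 0.33 (SE, adjusted p = 5.41e-04). It was also the imprinted peak where total H3K27me3, counted over all reads in 1 kb windows irrespective of parent, changed. Mean RPKM fell from 4.28 and 5.35 to 1.15 and 1.14 (limma, log2 change -1.69, adjusted p = 3.15e-07).

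The Kcnq1ot1 domain on distal chromosome 7 contributed 3 changed peaks. The region over Cdkn1c, Slc22a18 and Phlda2 (chr7:143298500-143509000) was the most deeply covered of the 16, with 10485 allelic reads over the 4 libraries. Cdkn1c encodes a cyclin-dependent kinase inhibitor and Phlda2 a growth-restraining protein, and both are expressed from the maternal allele. Log2(pat/mat) there was 2.31 and 2.09 in B6/CAST against 0.15 and 0.47 in matDKO/CAST, a change of -1.89 ± 0.27 (SE, adjusted p = 3.13e-04). At Trpm5 and Kcnq1, which encode ion channels (chr7:143074000-143231500), it went from 2.09 and 2.37 to 0.10 and 0.45 (-1.98 ± 0.27, adjusted p = 1.37e-04). At Th, Ascl2 and Tspan32 (chr7:142845000-143042500) it went from 1.28 and 1.38 to -0.02 and 0.21 (-1.24 ± 0.26, adjusted p = 0.0248). Ascl2 is a transcription factor of the placental lineage. The groups did not overlap at any of these 3 peaks, which the choice of named peaks required. The share in this direction over all informative peaks was 17.5%. Of the 8 informative peaks within 10000 bp of the 17 listed genes of this domain, 3 were called lower and 4 with the block, beside 0.146% and 0.426% of all informative peaks. The median change was -1.31, and all 8 changes were negative (highest -0.49).

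The neighbouring Igf2/Ins2 peak (chr7:142614000-142774500) is listed with the paternally methylated H19 locus, but it changed too. Igf2 encodes a fetal growth factor expressed from the paternal allele. Log2(pat/mat) was 0.94 in both B6/CAST libraries and -0.34 and -0.24 in matDKO/CAST (-1.24 ± 0.26, adjusted p = 0.0266). The H19 peak itself had 0.44 and 0.68 in B6/CAST against 0.01 and 0.33 in matDKO/CAST (-0.46 ± 0.45, adjusted p = 1.00).

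The Airn domain on chromosome 17 had 25 informative peaks near its listed genes, of which 2 were called lower and 10 with the block, beside the same 0.146% and 0.426% of all informative peaks. At the organic cation transporter genes Slc22a3 and Slc22a2 (chr17:12390000-12666000) log2(pat/mat) went from 1.88 and 1.28 to 0.08 and 0.27 (-1.44 ± 0.29, adjusted p = 0.0215, and -1.11 with 0.314 without B6/CAST replicate 1). The median change over the 25 peaks was -1.11, and the wild-type median of 1.37 stood against 0.22 in matDKO/CAST. A 2 kb peak in an intron of Igf2r beside the Airn start (chr17:12742000-12744000) had 82 allelic reads in all and went from 2.86 and 3.09 to 0.63 and 0.69 (-2.53 ± 0.83, adjusted p = 0.769). The change there was not called without the block or with it (adjusted p = 0.230).

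**Figure D3:**
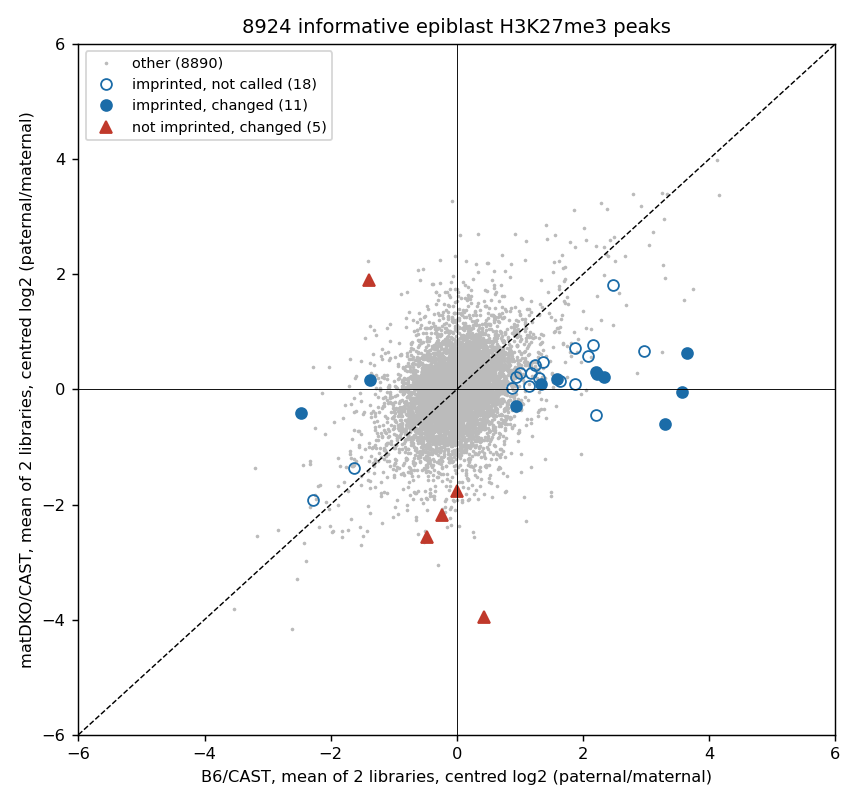
Mean centred log2(pat/mat) of the 2 B6/CAST libraries (horizontal axis) against that of the 2 matDKO/CAST libraries (vertical axis) for the 8924 informative peaks, with the line of equality dashed. The 11 changed imprinted peaks (filled circles) lie between -0.60 and 0.63 on the vertical axis, 15 of the 18 imprinted peaks that were not called (open circles) lie between -0.44 and 0.77, and the other 3 kept their bias.

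The change was on the maternal allele. Levels are given in CPM, which are counts scaled to each allele's centred library size. At the Grb10 peak the maternal level was 44.0 and 71.6 in B6/CAST against 588 and 428 in matDKO/CAST, while the paternal level was 641 and 718 against 542 and 431. At Cdkn1c/Phlda2 the maternal level rose from 785 and 1054 to 3870 and 3221, and the paternal level was 3893 and 4499 against 4298 and 4461. Over the 9 changed imprinted peaks with a paternal bias in the wild type, the maternal allele gained between 1.16 and 3.35 on the log2 scale (adjusted p from 4.48e-10 to 2.34e-04). Their paternal change lay between -0.61 and 0.16 and passed the threshold at none (lowest adjusted p 0.423). At Zdbf2 the maternal level fell from 987 and 1349 to 194 and 184, while the paternal level was 201 and 213 against 162 and 124. At the downstream Gnas peak the maternal level fell from 552 and 698 to 203 and 204, and the paternal level was 224 and 254 against 208 and 249.

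In the same fit 280 informative peaks (3.14%) changed on the maternal allele, 47 higher and 233 lower, and 234 (2.62%) on the paternal allele, 10 higher and 224 lower. All 16 peaks with a changed ratio were among the former and none among the latter, where the lowest adjusted p at the 16 was 0.199. The 2 counts depended on the library left out: without matDKO/CAST replicate 1 they were 66 and 21, without its replicate 2 they were 153 and 138, and without B6/CAST replicate 2 they were 487 and 321.

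**Figure D4:**
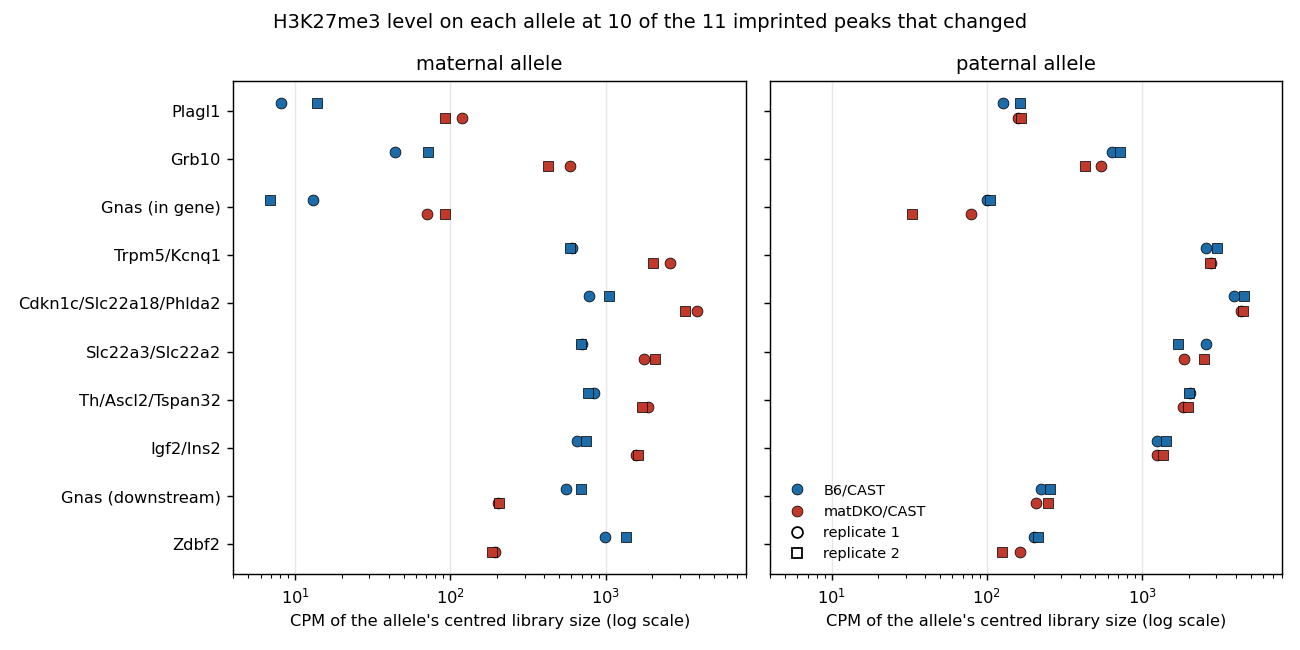
H3K27me3 level on the maternal (left) and paternal (right) allele at 10 of the 11 changed imprinted peaks, in CPM of the allele's centred library size on a log scale, per library. Maternal levels of the crosses are apart at every peak shown (Grb10, 44.0 and 71.6 against 588 and 428), higher in matDKO/CAST at 8 and lower at Zdbf2 and downstream Gnas.

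Of the 18 imprinted peaks that were not called, 15 had no bias past the threshold within matDKO/CAST, and 14 had none with library as a block. Their mean log2(pat/mat) ran from 0.88 to 2.97 in B6/CAST and from -0.44 to 0.77 in matDKO/CAST, and the change was negative at all 15, between -2.77 and -0.71. The libraries of the 2 crosses did not overlap at 13 of them, and at 17.5% of all informative peaks in this direction. The 15 were chosen by a bias in B6/CAST and its absence in matDKO/CAST. Their direction and this count are therefore a description.

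The other 3 kept their bias. Dlk1 and Mir341/Mir1188 belong to a domain whose germline methylation is paternal, and the remaining peak lies near Rasgrf1, another locus of that kind, a neighbour looked up after the values were seen. Dlk1 encodes a transmembrane growth regulator (chr12:109389500-109494000). Its log2(pat/mat) was -1.76 and -1.52 in B6/CAST against -1.57 and -1.17 in matDKO/CAST. The CAST/B6 libraries gave -1.56 and -1.32. The change was 0.23 with a 95% interval of -0.32 to 0.78. At Mir341/Mir1188, microRNA genes of the Meg3 side of that domain (chr12:109610500-109615500), it was 2.86 and 2.10 against 2.44 and 1.18, with a change of -0.39 (95% interval -2.10 to 1.32) from 71 reads. The peak over 4930524O08Rik (chr9:89861000-89894500, exonic) ended 15.4 kb from Rasgrf1, a guanine nucleotide exchange factor gene. It had -2.44 and -2.13 in B6/CAST against -1.98 and -1.87 in matDKO/CAST, a change of 0.35 (95% interval -0.30 to 1.00).

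Calls were counted over the fixed lists of imprinted genes, beside 0.179% of all informative peaks. The 76 genes under maternal germline methylation had 56 informative peaks within 10000 bp of 46 of them, of which 8 were called lower and 2 higher, 18 and 2 with the block (0.426% and 0.101% of all informative peaks), and the median change was -0.87. The 11 genes under paternal germline methylation had 10 peaks with 1 called, Igf2/Ins2, and a median of 0.05. The difference between these lists was not tested. No peak was called near the Snrpn, Peg10 and Mest clusters, with 4, 4 and 3 informative peaks, and the 6 genes of the Peg3 cluster had none. Among so few peaks, a count of 0 is near the share called over all peaks. At Mkrn3/Peg12 of the Snrpn cluster log2(pat/mat) was 0.80 and 0.58 against 0.19 and 0.34 (-0.41, 95% interval -1.04 to 0.22). This was the lowest change of that cluster, where Magel2, Ndn and Atp10a had changes of 0.60, 0.09 and -0.09. Genes of noncanonical imprinting, which does not depend on oocyte DNA methylation, had 4 informative peaks with none called. Of these Sfmbt2, a Polycomb group gene, stood at -0.59 and -0.63 in B6/CAST and at -0.82 and -0.58 in matDKO/CAST (change -0.10, 95% interval -0.67 to 0.48).

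Canonical Polycomb targets gave ratios near 0 in both crosses. The 99 listed Hox and other developmental regulator genes had 66 informative peaks, none called with or without the block, a count near the 0.179% called over all peaks. Their median change was 0.02 and the range -0.57 to 0.51, against a median of 0.00 over all informative peaks. The Hoxa cluster was covered by a single peak whose log2(pat/mat) was 0.13 and 0.07 in B6/CAST against -0.02 and -0.05 in matDKO/CAST (change -0.13, 95% interval -0.69 to 0.43). At Hoxd it was 0.05 and 0.00 against 0.04 and 0.03 (0.01, 95% interval -0.54 to 0.57), and at Hoxc 0.03 and 0.00 against 0.04 and 0.07 (0.04). Hoxb lies on chromosome 11, and B6/CAST replicate 1 gave -0.40 there while the other 3 libraries gave -0.00, 0.10 and -0.03 (0.25, 95% interval -0.29 to 0.78).

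A further 5 changed peaks were not imprinted in the wild type, and 4 of these gained maternal reads. Zp3, an egg coat gene (chr5:135979000-135982000, over its start site), had 14 and 7 paternal against 10 and 6 maternal reads in B6/CAST, and 18 and 3 paternal against 433 and 52 maternal reads in matDKO/CAST. Its log2(pat/mat) went from 0.60 and 0.26 to -4.32 and -3.58 (-4.57 ± 0.68, adjusted p = 3.78e-04), and total H3K27me3 rose from 1.00 and 0.91 to 20.7 and 8.84 RPKM. The Zp3 promoter also drives the cre transgene that these mothers carry. At this peak the 3 inputs of the matDKO/CAST cross gave 2.77, 2.00 and 0.63 RPKM, the last from a pool not used for H3K27me3, and the 6 wild-type inputs 0.40 to 0.62 RPKM. Transgene copies and the endogenous Zp3 promoter cannot be told apart in these reads. Without B6/CAST replicate 1 the adjusted p was 0.115, and without matDKO/CAST replicate 1 it was 0.176.

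At the metallothionein genes Mt2 and Mt1 (chr8:94166000-94188000) log2(pat/mat) was -0.38 and -0.56 in B6/CAST against -2.35 and -2.76 in matDKO/CAST (-1.91 ± 0.34, adjusted p = 0.00443), with inputs of 0.67, 0.55 and 0.56 RPKM against 0.39 to 0.54 RPKM. In CAST/B6 the ratios there were 0.68 and 0.84 (0.76, adjusted p = 4.98e-09 within that cross), so the B6 allele was the higher one in both wild-type crosses, while B6/CAST on its own did not pass (adjusted p = 0.504). At Sema5b, an axon guidance gene (chr16:35524000-35548000), it was -0.15 and 0.17 against -1.63 and -1.89 (-1.71 ± 0.32, adjusted p = 0.00768). The inputs there were 0.80, 0.81 and 1.00 RPKM against 0.52 to 0.56 RPKM in the wild type. Ntsr2, a neurotensin receptor gene (chr12:16650500-16659000), was named after its values were seen and had -0.02 and -0.46 against -2.67 and -1.70 (-2.20 ± 0.46, adjusted p = 0.0248). The sum of its allele levels was 123 and 131 CPM in B6/CAST against 253 and 221 CPM, while total H3K27me3 was 3.22 and 3.27 against 3.41 and 2.69 RPKM. For Ntsr2 DESeq2 gave an adjusted p of 0.585, and the edgeR change was -1.54 without matDKO/CAST replicate 1 and -2.01 without B6/CAST replicate 1.

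Tmem267 was the single changed peak in the strain-bias class, which needs both wild-type crosses past the threshold (chr13:119609000-119613000, exonic). Its log2(pat/mat) was -1.57 and -1.23 in B6/CAST, 2.22 and 2.09 in CAST/B6, and 2.25 and 1.56 in matDKO/CAST (3.63 ± 0.65, adjusted p = 0.00443). Its wild-type inputs gave 1.09 to 1.43 RPKM, more than the 0.67, 0.42 and 0.41 RPKM of the matDKO/CAST inputs. DESeq2 gave an adjusted p of 0.147 for it.

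With library as a block, 27 peaks outside the imprinted class were called, 20 lower and 7 higher. Apart from the 5 above, these were named after their values were seen. The class was that of the fit without a block, with 29 peaks, whereas 53 peaks were imprinted with the block. Peaks called non-imprinted here may therefore have a wild-type bias in the paired analysis, and their number was not counted. Of the 20, 3 belong to the lists of genes under maternal germline methylation, although outside the imprinted class: Tnfrsf26 of the Kcnq1ot1 domain (change -1.37), T/Pde10a of the Airn domain (-0.51), and Rem1/Defb25, which lies within 10000 bp of H13 (-1.06). At H13, a signal peptide peptidase gene, log2(pat/mat) of H3K4me3 was 0.24 and 0.40 in B6/CAST against -5.25 and -4.42 in matDKO/CAST (-5.59 ± 0.53, adjusted p = 2.81e-07). H3K4me3 changes as large were called outside the imprinted lists on chromosome 2, lower at Rhov (-6.755) and higher at the gene a (9.57). Several of the 20 lay near each other or near a floxed gene. Rem1/Defb25, Epb41l1 and Ada were 0.98, 2.73 and 10.1 Mb from Dnmt3b on chromosome 2, and Ntsr2 was 12.7 Mb from Dnmt3a. Within 15 Mb of either gene, a distance chosen after the values were seen, were 4 of the 20 and 217 (2.43%) of all informative peaks. Klc3/Ckm, Exoc3l2 and Nkpd1 lay within 0.06 Mb of the next such peak on chromosome 7. The mothers' 129 segments, the maternal reads added for them and the loss of methylation came with the same cross. They cannot be told apart at these peaks. Of the 7 that were higher, 4 lie on chromosomes 3 and 11. After centring each chromosome on its own median, 2 of these 4 were called, Tmem132e and Gjc1 on chromosome 11 were not (adjusted p = 0.334 and 0.363), and 19 of the 20 lower peaks were.

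The same contrast in ExE used other libraries and called 138 of 18592 informative ExE peaks (0.742%). At all 11 changed imprinted peaks both matDKO/CAST ExE libraries lay on the same side of both B6/CAST ExE libraries as in the epiblast. The 4 non-imprinted changed peaks that overlapped an ExE peak and the 20 non-imprinted lower peaks of the block fit also did so, as did 3 of the 5 non-imprinted higher peaks with an ExE peak, against 25.4% of the 8565 informative peaks with an ExE peak. The 11 rest on 10 ExE peaks, since Trpm5/Kcnq1 and Th/Ascl2 fall in the same one. At Grb10 the ExE ratio was 1.71 and 1.96 in B6/CAST against 0.29 and -0.44 in matDKO/CAST, and at Zdbf2 it was -1.36 and -1.46 against -0.87 and -0.44. At Ntsr2 the ExE ratio was -0.17 and -0.49 against -2.13 and -1.66. The tissue difference was tested in 2509 pairs of overlapping epiblast and ExE peaks. No pair passed (edgeR, 55 at an unadjusted p below 0.05), and with library as a block 4 did. In that fit the change was larger in the epiblast at Grb10 (-1.81 ± 0.31, adjusted p = 9.33e-05) and Zdbf2 (1.44 ± 0.29, adjusted p = 0.00229). It was smaller in the epiblast at Slc22a3/Slc22a2 (1.12 ± 0.15, adjusted p = 4.81e-08) and Mas1 (1.06 ± 0.19, adjusted p = 1.71e-04).

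H3K4me3, a mark of active promoters, was measured in the same pools, and its parental ratio changed at 136 of 20328 peaks (0.669%). Of the 20 H3K4me3 peaks that overlapped a changed H3K27me3 peak, 4 changed, against 53 of 6997 (0.757%) over all informative H3K27me3 peaks. At Plagl1 both marks lay on the paternal allele in the wild type. H3K4me3 log2(pat/mat) was 4.93 and 5.98 in B6/CAST against 0.19 and 0.07 in matDKO/CAST (-5.40 ± 0.53, adjusted p = 6.90e-07). At Grb10 the marks lay on opposite alleles and H3K4me3 moved the other way, from -4.06 and -3.62 to 0.52 and 0.99 (4.67 ± 0.81, adjusted p = 0.00192). At Cdkn1c it likewise went from -2.67 and -2.16 to -0.39 and 0.40 (2.39 ± 0.53, adjusted p = 0.0256). At the Zdbf2 start H3K4me3 went from 1.54 and 0.79 to -0.14 and 0.20, with an adjusted p of 0.472 that was 0.0138 with the block.

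At the Airn start, where the H3K27me3 change did not pass, H3K4me3 went from 5.39 and 7.47 to 0.47 and 0.50 (-5.65 ± 0.59, adjusted p = 1.55e-06). At Sema5b the H3K4me3 ratio fell with that of H3K27me3, from 0.12 and 0.16 to -0.98 and -1.80 (-1.36 ± 0.29, adjusted p = 0.0150). Of 28 H3K4me3 peaks at the 27 non-imprinted peaks of the block fit, 9 changed and all 9 were lower, against 0.757% over all informative H3K27me3 peaks, where 47 of the 53 changed were lower.

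H3K36me3, which marks transcribed gene bodies, changed at 18 of 11076 peaks (0.163%). It had 5 peaks at the changed H3K27me3 peaks and 2 of these changed, against 0.513% of 585. The Grb10 gene body went from a maternal bias of -2.21 and -1.46 to -0.26 and 0.08 (1.62 ± 0.30, adjusted p = 5.09e-04). Tmem267 went from -1.42 and -0.23 to 3.89 and 3.54 (4.93 ± 0.94, adjusted p = 7.65e-04), the direction of its H3K27me3 ratio.

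**Figure D5:**
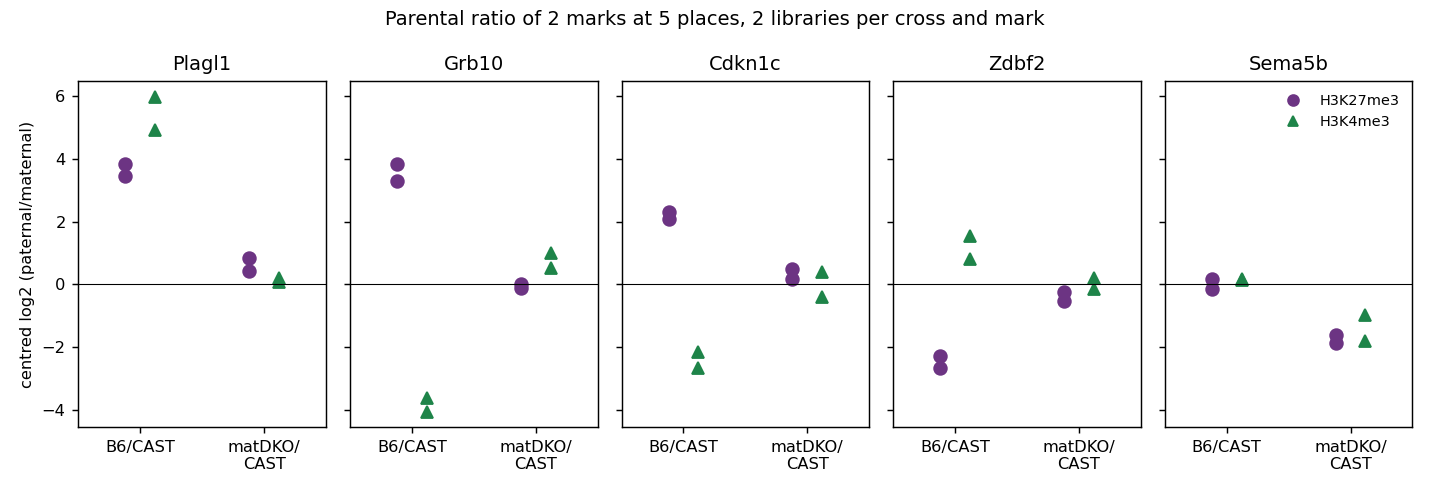
Centred log2(pat/mat) (vertical axis) of H3K27me3 (circles) and H3K4me3 (triangles) in 2 libraries per cross and mark at 5 places. In matDKO/CAST both marks lie between -0.55 and 0.99 at Plagl1, Grb10, Cdkn1c and Zdbf2, and at Sema5b both are at -0.98 or lower.

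Total H3K27me3 changed at 14 of the 8924 informative peaks (0.157%, limma), 1 higher, Zp3, and 13 lower. Leaving out a library gave 292 calls without matDKO/CAST replicate 1, 6 without B6/CAST replicate 2, and 5 without either of the others. Of the 16 peaks with a changed ratio, Zp3, Zdbf2 and Tmem267 were among the 14. At the 9 changed imprinted peaks with a paternal bias in the wild type the lowest adjusted p for total H3K27me3 was 0.805. At Grb10 the B6/CAST libraries gave 2.73 and 3.20 RPKM and the matDKO/CAST libraries 4.60 and 2.83 RPKM. The matDKO/CAST libraries thus differed more from each other there than the means of the crosses did.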

How the data were processed

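Native ultra-low-input ChIP-seq with an antibody to H3K27me3 was made from pools of 4 E6.5 epiblasts, 2 pools per cross. Per the labels, reads were trimmed with Trim Galore 0.4.4 and aligned with Bowtie2 2.3.2 to GRCm38. The authors split reads by strain variants with SNPsplit, called peaks in the wild-type crosses with chromstaR, and deposited raw allelic read counts per peak made in SeqMonk. For matDKO/CAST, variants shared by 129 and CAST were excluded from a first split. Reads left unassigned were then aligned again, and those specific to 129 were added to the maternal allele. The study describes no matching addition to the paternal allele and no such step for B6/CAST. The part of this step in the ratios was not tested. The deposited window files hold RPKM in 1 kb windows.

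The allelic counts were tested as deposited with edgeR 4.0.16 (R 4.3.3, glmQLFit and glmQLFTest, two-sided) as cross, parent and their interaction. Column sizes were set so that each library's median autosomal log2(pat/mat) was 0, and library sums were TMM scaled. Peaks needed 20 reads in 1 allele of a wild-type library. Per-library ratios used a prior count of 0.5. Total H3K27me3 was tested with limma 3.58.1 on log2(RPKM + 0.5), a scale that understates the change of low peaks. DESeq2 1.42.0 was an alternative, with others of filter, centring, threshold and library. Adjusted p-values are Benjamini-Hochberg over all informative peaks. The scripts were tested on simulated data.

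Replicate numbers pair the alleles: both alleles of a library come from the same pool and sequencing library, so the fit with library as a block is a paired analysis, and the main design has none. Residual spread rests on 2 pools per cross, and counting intervals do not cover PCR duplication. Peaks and lists were chosen with earlier results of these data known. Named were the called peaks of smallest p, up to 10 in each direction, whose crosses did not overlap, the most covered peak within 10000 bp of each gene of the imprinted lists, and 1 peak per Hox cluster. The 129 segments, the maternal reads added for them and the loss of maternal methylation came with the same cross and cannot be told apart. Chromosome X peaks (1379) were left out, and 1 of the 16 changed peaks is counted but its own values are not reported here.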

Additional observations from a re-analysis of the deposited data

Results flagged for a closer look

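The input libraries, which are chromatin without immunoprecipitation and entered no comparison, had a matDKO/CAST mean over the highest wild-type input at 4 of the 16 changed peaks and over 1.5 times it at 2 of them, Zp3 and Sema5b. At Zp3 the mean of the 3 matDKO/CAST inputs was 1.80 RPKM, and the highest of the wild-type inputs was 0.62 RPKM. That mean rested on replicates 1 and 2, with 2.77 and 2.00 RPKM, since replicate 3 gave 0.63 RPKM. The label of replicate 3 names B6 mothers without 129, and the study's sample list assigns it to another pool than those used for H3K27me3. At Sema5b the mean was 0.873 RPKM against at most 0.56 RPKM, with all 3 inputs above the wild type. The smaller excesses were at Mt2/Mt1 and Slc22a3/Slc22a2. The part of copy number in the H3K27me3 ratios at these peaks was not tested.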

How the results depend on the processing

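Under the 16 alternatives the changed peaks gave 252 values, 0 of them reversed, of which 213 stayed past the threshold and 39 did not. The minimum of 20 reads in each library kept 13 of the 16, without Zp3, Tmem267 and the Gnas peak within the gene, and leaving out chromosomes 3 and 11 removes Grb10. Leaving out a library leaves 1 in its arm, whose spread is then assumed to be that of the other group. With the replicate block, the paired analysis, 47 peaks were called (38 lower, 9 higher), 20 imprinted peaks changed, 53 peaks were imprinted in the wild type against 29, 307 were biased within matDKO/CAST against 168, and 4 tissue differences passed against 0. H3K4me3 calls at the changed peaks went from 4 to 6, with Zdbf2 and Mt1 gained, and H3K36me3 calls stayed at 2. With the block and each chromosome's own median, an alternative chosen after seeing the data, 48 peaks were called (41 lower, 7 higher), 20 of them imprinted. At an adjusted p below 0.01 there were 10 calls, 8 lower, with 6 imprinted. DESeq2 called 1 higher peak and lost calls that included Gnas downstream, Ntsr2 and Tmem267. Leaving out each library in turn gave 1 to 25 calls (1 to 21 lower, 0 to 4 higher), 1 to 16 imprinted peaks that changed, 66 to 487 maternal and 21 to 321 paternal allele changes, and 5 to 292 changes of total H3K27me3, which numbered 46 over all autosomal peaks. The causes were not tested. Leaving out chromosomes 3 and 11, centring each chromosome alone and a filter over the 4 libraries compared were also chosen after seeing the data and gave 16, 16 and 19 calls. Of the 4 libraries matDKO/CAST replicate 2 was the shallowest, with a median of 16 allelic reads per peak, and the part of depth in the calls was not tested.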
